A study of Mus musculus with 4 samples.

Results

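The *Slco1* genes of the mouse encode organic anion transporting polypeptides (Oatp), membrane carriers that bring bile acids, bilirubin, steroid conjugates, thyroid hormones and many drugs into cells. The 6 genes described here, *Slco1c1*, *Slco1b2*, *Slco1a4*, *Slco1a1*, *Slco1a6* and *Slco1a5*, were taken by their symbols in the mm9 annotation, out of 22367 protein-coding genes in all, and lie side by side on chromosome 6. Their position relative to the nuclear lamina was measured by DamID, in which a fusion of Dam methylase and lamin B1 marks GATC sites on the adenine wherever DNA comes near the nuclear envelope (NE), and free Dam methylase gives the accessibility of the DNA. The study compared primary hepatocytes of wild-type (WT) mice with those of *Tm7sf2* knockout mice (KO), which lack a transmembrane protein of the NE and endoplasmic reticulum, also called NET47, that is a sterol reductase and a paralog of the lamin B receptor. The mice of both genotypes were on a C57BL/6 background and 12 to 16 weeks old, and hepatocytes of both were cultured in serum-free medium with insulin, dexamethasone and epidermal growth factor and transduced for 24 h with a lentivirus for either Dam-LaminB1 or Dam only. This gave 4 libraries, 1 for each genotype and construct, each from the pooled DNA of 4 mice, and the KO libraries were sequenced less deeply than the WT libraries.

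The data are lists of lamina-associated domains (LADs), 8107 in WT and 16076 in KO, and lists of differential regions (DRs), the stretches of at least 10 kb that are LAD in a single genotype. Each entry is a position with no signal, read number or error. With 1 library pair per genotype no spread between mice can be given, so every difference below compares these libraries and none carries a p-value. The genotype also cannot be told apart from the lower depth of the KO libraries, in which LADs were more numerous over the genome. Expression was not part of these lists, so the labelled cell type could not be checked against hepatocyte markers. A pool of cells gives a call for the population, and a move in some of the cells cannot be told apart from a smaller move in all of them.

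Liver cells take up their substrates across the basolateral membrane that faces the blood. *Slco1b2* (Oatp1b2) is the uptake carrier most closely tied to the hepatocyte and handles bilirubin, bile acids and drugs such as statins. *Slco1a1* and *Slco1a4* are also carriers of the hepatocyte surface, and *Slco1a4* is known from the blood-brain barrier as well. *Slco1a6* is best known from kidney, *Slco1a5* from intestine and other epithelia, and *Slco1c1* is the thyroxine carrier of brain capillaries. The family is held to have arisen by duplication, which was not tested here, and the likeness of the coding sequences was measured. Over 6 pairs of *Slco1a* genes the identity of aligned coding bases was 83.1% to 89.3%, highest for *Slco1a4* with *Slco1a5*, whereas the 9 pairs that include *Slco1b2* or *Slco1c1* had 59.7% to 61.9%.

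From the first base of *Slco1c1* to the last base of *Slco1a5* the cluster spans 798.6 kb, chr6:141472907-142271501 in NCBIM37, the assembly that UCSC calls mm9. *Slco1c1* and *Slco1b2* lie first and on the plus strand, and the 4 *Slco1a* genes follow on the minus strand. The stretch holds 9 protein-coding genes in all. *Gm5724* lies between *Slco1b2* and *Slco1a4*, *Gm6614* lies between *Slco1a1* and *Slco1a6*, and *Iapp*, the gene of islet amyloid polypeptide, a hormone of pancreatic beta cells, lies within the span of *Slco1a5* on the other strand. The coding sequences of *Gm5724* and *Gm6614* had 82.9% to 87.0% of aligned bases in common with those of the *Slco1a* genes and with each other. The other 6 annotated genes of the stretch are 4 copies of 7SK RNA, the processed pseudogene *RP24-323I5.3* and the noncoding *RP24-323I5.2*.

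The cluster lay mostly at the lamina in WT, and less of it did so in the KO. WT LADs covered 82.1% of its bases (655.8 kb in 8 LADs) and KO LADs covered 61.9% (494.2 kb in 11 LADs). Of the WT LAD bases, 72.7% were also LAD in the KO and 27.3% were not. With LADs joined across gaps of up to 20 kb, coverage was 90.9% in WT and 70.7% in KO, and with gaps of up to 50 kb it was 90.9% and 86.7%. Over all of chromosome 6 the WT LADs covered 55.1% and the KO LADs 57.5%, with a loss of 10.3% of the WT LAD bases, while over all chromosomes 55.4% was covered in WT, 56.1% in KO, and 12.9% was lost. The cluster therefore fell in coverage on a chromosome where coverage rose slightly. The 500 kb before the cluster lost 24.2% of their WT LAD bases, and the 500 kb after it lost 11.6%. A loss near that of the cluster was thus also found on 1 side of it. Of the KO LAD bases in the cluster, 3.56% were not LAD in WT, against 14.1% over chromosome 6 and 13.9% over all chromosomes. All 7 DRs of the cluster were WT-only. They held 137.1 kb, or 17.2% of the cluster, where WT-only DRs made up 4.69% of chromosome 6 and 6.05% of all chromosomes. They came to 60.5 kb with DRs of at least 20 kb and to 28.1 kb with LADs joined across 50 kb. No KO-only DR lay in the cluster, and KO-only DRs made up 7.46% of chromosome 6. The cluster was 82.1% LAD in WT against 55.1% for chromosome 6, so it had more to lose and less room to gain. The shares of new LAD bases and of both kinds of DR are not matched for this. With LADs of at least 20 kb, KO-only DRs held 14.5 kb of the cluster.

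**Figure D1:**
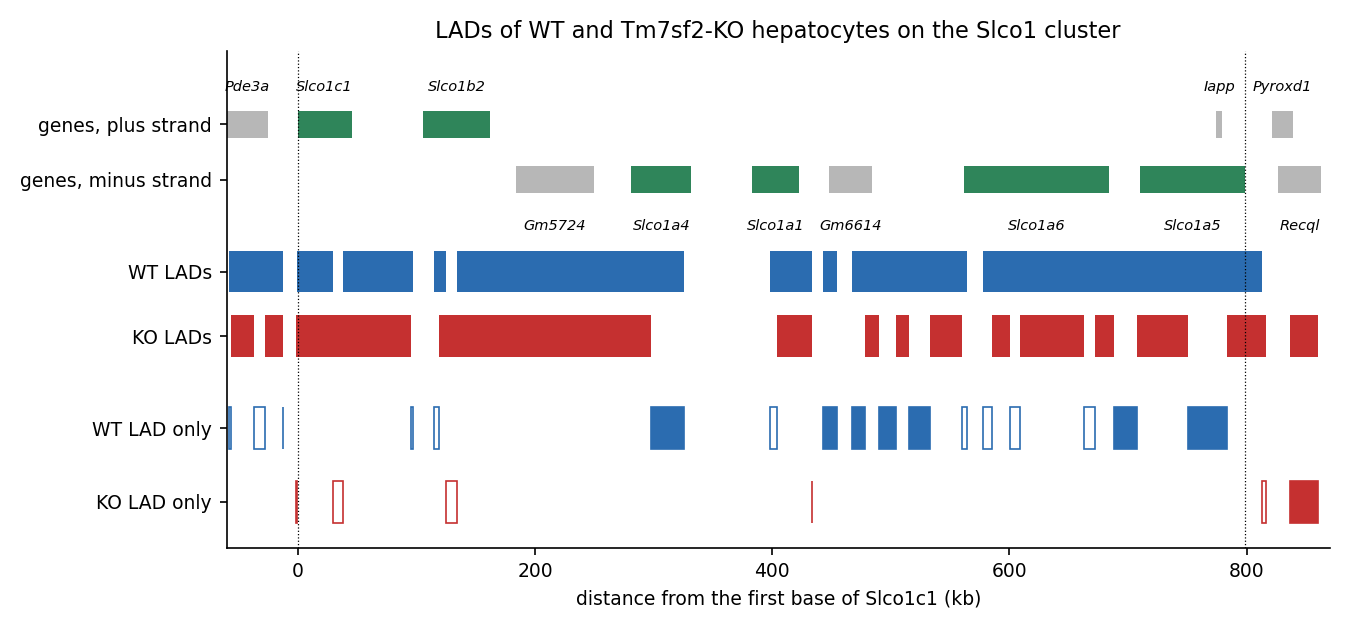
Genes, LADs and LAD differences along the cluster, with distance from the first base of *Slco1c1* in kb on the x axis and the edges of the cluster as dotted lines. Green bars are the 6 *Slco1* genes and gray bars other protein-coding genes, and in the lower tracks filled bars are DRs and open bars are differences under 10 kb. The 7 filled WT-only bars in the cluster lie from *Slco1a4* onward, and the filled KO-only bar at the right, of 23.4 kb, lies past the end of *Slco1a5*.

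The loss was uneven along the cluster. The stretch before the *Slco1a4* span, 281.1 kb with *Slco1c1*, *Slco1b2* and *Gm5724*, was 87.4% LAD in WT and 91.4% in KO, and held no DR. From the *Slco1a4* span on, 517.5 kb with the *Slco1a* genes, *Gm6614* and *Iapp*, coverage was 79.2% in WT and 45.8% in KO, a loss of 42.2% of the WT LAD bases. With differences of any length, the first stretch gained 17.5 kb and lost 6.24 kb, and the second gained 0.109 kb and lost 173.0 kb, of which 137.1 kb lay in DRs. The LADs also changed in number, from 4 in WT to 2 in KO in the first stretch and from 5 to 10 in the second. In either genotype, the LAD that crosses from the first stretch into the second was counted in both stretches. The place of this split was chosen after the values had been seen and is a description only.

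Steps of 100 kb show where coverage differed. In the first 3 steps of the cluster, coverage was 88.5%, 76.2% and 100% in WT and 95.4%, 80.5% and 97.5% in KO. The fourth step, which holds the end of the *Slco1a4* gene that carries its transcription starts, was 27.6% LAD in WT and held no LAD base in the KO. In the 4 steps after it, WT coverage was 78.8%, 86.2%, 100% and 100%, and KO coverage was 40.7%, 51.3%, 70.1% and 60.3%. The KO was thus below WT in each of the last 5 steps of the cluster, by 27.6 percentage points or more.

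**Figure D2:**
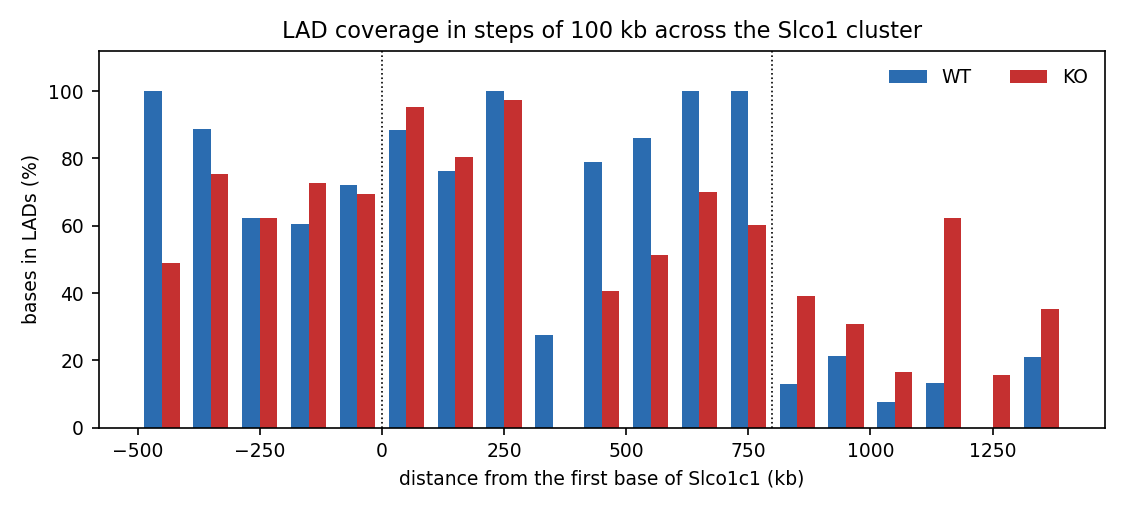
Share of bases in LADs (%, y axis) in steps of 100 kb, plotted against distance from the first base of *Slco1c1* in kb, for WT (blue) and KO (red), with dotted lines at the edges of the cluster. The KO bars are the lower ones from 200 kb to the end of the cluster, and the KO bars are the higher ones in each of the 6 steps after it.

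By gene span, 2 of the 6 genes were PI (peripheral in WT, with 1 base or more in a WT-only DR), namely *Slco1a4* and *Slco1a5*. Among all protein-coding genes 5.43% were PI. The other 4 genes, *Slco1c1*, *Slco1b2*, *Slco1a1* and *Slco1a6*, were PP (in a LAD in both genotypes, with no DR), against 17.9% of all genes. None was IP (overlapping a KO-only DR), AMB (overlapping both kinds) or II (none of these), against 17.1%, 2.96% and 56.6%. Length and place in WT bear on these shares. The 6 spans ran from 39.7 to 122.8 kb, with a median of 53.9 kb against 15.4 kb for all genes, and their median share in WT LADs was 84.5% against 0% for all genes. Among the 787 genes in that length range with at least 50% of their span in WT LADs, 24.8% were PI, 42.9% PP, 19.6% IP, 12.7% AMB and 0% II. Set against those genes, 2 PI of 6 is close to the background and is not a result about these 6 genes, which also share LADs with each other. The count of PI genes also moved with the rule. It was 1 when 50% of the span was asked for (2.23% of all genes), 0 by the transcription start alone (2.23%), 4 with differences of any length (6%), 4 with LADs joined across 20 kb (4.28%) and 1 with LADs joined across 50 kb (2.81%). The median share in KO LADs was 64.6% for the 6 genes and 0% for all genes.

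**Figure D3:**
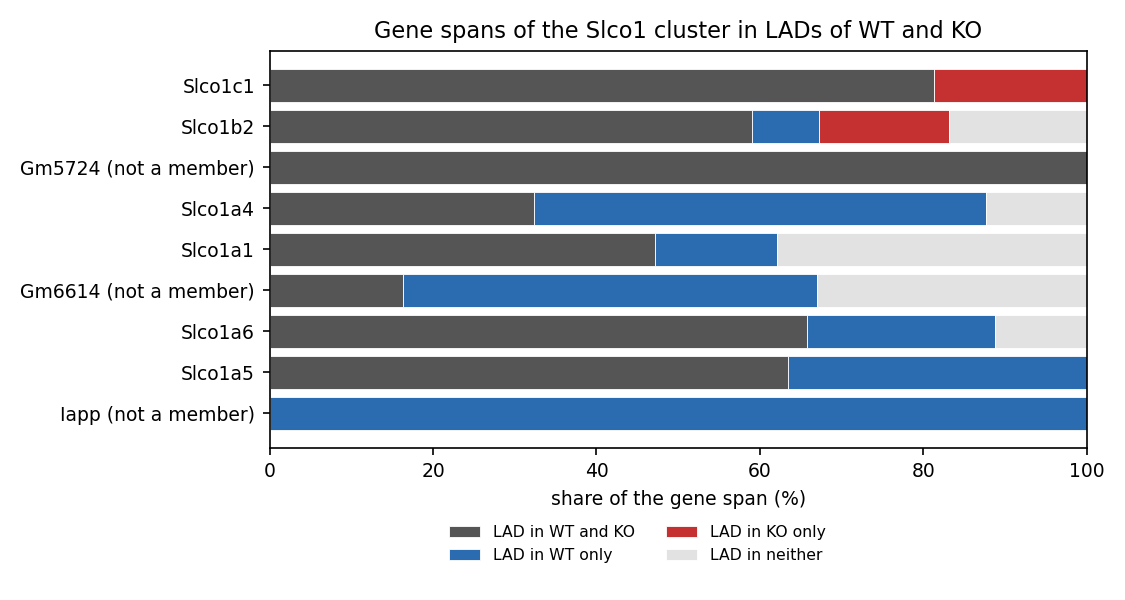
Share of each gene span (%, x axis) that was LAD in both genotypes (dark gray), in WT only (blue), in KO only (red) or in neither (light gray), for the 9 protein-coding genes of the cluster in map order. Red is seen in *Slco1c1* and *Slco1b2*, while blue takes 55.3% of *Slco1a4* and all of *Iapp*.

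*Slco1a4* (ENSMUSG00000030237.7, chr6:141753961-141804720, minus strand) lost the largest share of the 6 genes. WT LADs covered 87.6% of its 50.8 kb and KO LADs 32.3%. The single WT-only DR that it overlapped, chr6:141770362-141798436, was 28.1 kb long and took 55.3% of the span. It lies at the edge of a WT LAD of 191.6 kb (chr6:141606828-141798436) that starts in *Slco1b2*. In the KO the LAD in its place, of 178.0 kb, ended within *Slco1a4* at 141770361. Of the 17 exons of a transcript that starts at 141804692, exons 4 to 10 were in a LAD in WT only, exons 11 to 17 in both genotypes, and exons 1 to 3 in neither. The outermost transcription start lay outside the LADs of both genotypes, 6.28 kb from the nearest WT LAD and 34.4 kb from the nearest KO LAD. A further protein-coding transcript starts at 141794041, which was 4.40 kb inside the WT LAD and 23.7 kb outside the nearest KO LAD. The call of *Slco1a4* as PI was kept under each other gene, length and joining rule tried except that of the transcription start alone, under which it was II.

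The 300 bases around the outermost and the innermost annotated start of *Slco1a4*, 250 before and 50 after the start as read along the gene, are printed because they separate what the lists say of the gene. The window of the outer start was in neither LAD list and the window of the inner start was a LAD in WT only. GATC, the letters that Dam methylase reads and that are the same on both strands, is in neither window, while 46.2% of 22367 such promoter windows hold it, so a call there comes from the GATC fragments around the window. Both are given 5′ to 3′ on the minus strand of NCBIM37.
*Slco1a4* outer start, chr6:141804671-141804970: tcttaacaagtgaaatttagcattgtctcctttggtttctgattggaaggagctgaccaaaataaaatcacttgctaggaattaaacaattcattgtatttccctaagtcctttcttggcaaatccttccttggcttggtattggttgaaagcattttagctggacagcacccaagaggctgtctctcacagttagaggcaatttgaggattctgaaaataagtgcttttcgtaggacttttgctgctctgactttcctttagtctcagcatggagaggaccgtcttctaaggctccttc
*Slco1a4* inner start, chr6:141793992-141794291: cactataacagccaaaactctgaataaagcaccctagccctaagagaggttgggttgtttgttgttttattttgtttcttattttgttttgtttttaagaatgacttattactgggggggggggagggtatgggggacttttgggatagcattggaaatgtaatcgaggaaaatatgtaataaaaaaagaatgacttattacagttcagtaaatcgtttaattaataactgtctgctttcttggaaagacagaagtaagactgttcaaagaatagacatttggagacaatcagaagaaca

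The ends of the *Slco1a4* DR show how the borders were set. At 98.9% of all WT LAD borders and 99.5% of all KO LAD borders a GATC site stood at the border, and the same held for all 14 WT and all 20 KO borders in the cluster. The median distance between neighboring sites in the cluster was 241 bp. The 40 bases around each end of the DR are given 5′ to 3′ on the plus strand, with the GATC site in capitals. The first is the end of the KO LAD and the second is the end of the WT LAD.
KO LAD end, chr6:141770341-141770380: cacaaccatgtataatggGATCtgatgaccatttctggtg
WT LAD end, chr6:141798416-141798455: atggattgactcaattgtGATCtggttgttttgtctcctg
Between these borders lay 61 GATC sites, with 28.1 kb of DNA in the DR.

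*Slco1a5* (ENSMUSG00000063975.6, chr6:142182748-142271501, minus strand) was wholly in a LAD in WT and 63.4% in LADs in the KO. Its DR, chr6:142223505-142255963, was the longest of the cluster at 32.5 kb, held 73 GATC sites and took 36.6% of the span. It opened inside a WT LAD of 235.3 kb that covers *Slco1a6* in part, *Slco1a5* and *Iapp*. In the KO 5 LADs lay over that WT LAD and covered 67.0% of it. Of the 16 exons, 15 were in a LAD in both genotypes and exon 2 was in WT only. The outermost start was in a LAD in both, 14.5 kb from the border in WT and 15.5 kb in KO. The gene was PP when 50% of the span was asked for, by the transcription start alone and with LADs joined across 50 kb. A transcript annotated for nonsense-mediated decay and 2 processed transcripts start within the DR, at 142224088 and 142227356, 0.584 kb and 3.85 kb from the nearest KO LAD.

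*Iapp* (ENSMUSG00000041681.2, chr6:142246943-142252481, plus strand) lay wholly within the same DR. All of its bases and all 3 exons were in a LAD in WT and none in the KO, its start being 39.0 kb inside the WT LAD and 9.02 kb outside the nearest KO LAD. It is thus the gene of the cluster whose whole span differed between the lists, though with LADs joined across 50 kb it was PP. The promoter window of *Iapp*, LAD in WT only and without GATC, and the borders of the DR that holds it are given 5′ to 3′ on the plus strand. The first border has 2 GATC sites within the 40 bases.
*Iapp* start, chr6:142246693-142246992: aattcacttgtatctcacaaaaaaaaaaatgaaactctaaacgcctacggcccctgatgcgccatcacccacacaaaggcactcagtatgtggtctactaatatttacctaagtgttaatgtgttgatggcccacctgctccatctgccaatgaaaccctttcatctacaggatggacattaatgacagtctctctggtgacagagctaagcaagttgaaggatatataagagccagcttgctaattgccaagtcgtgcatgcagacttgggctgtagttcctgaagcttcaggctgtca
KO LAD end before the DR, chr6:142223484-142223523: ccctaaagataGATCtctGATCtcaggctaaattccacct
KO LAD start after the DR, chr6:142255943-142255982: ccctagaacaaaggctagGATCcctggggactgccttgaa

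*Slco1a6* (ENSMUSG00000079262.3, chr6:142034282-142157042, minus strand), the longest of the 6 genes at 122.8 kb, was PP although its coverage differed more than that of the other PP genes. WT LADs covered 88.7% of it and KO LADs 65.7%. The difference, 28.2 kb or 23.0% of the span, lay in 4 pieces of 4.24, 7.87, 8.47 and 9.31 kb, the first of which begins just outside the gene, and all of which fall below the 10 kb minimum of a DR. Its outermost start was in a LAD in both genotypes, 106.3 kb from the nearest border in WT and 3.71 kb in KO. The exons counted are those of a transcript that starts further in, at 142134674, 84.0 kb from the WT border and 0.634 kb from the KO border. Of its 15 exons, 6 were in a LAD in both genotypes, 4 in WT only and 5 in neither, and exon 5, counted as in both, lies across the KO border at 142081682. The gene was PI when differences of any length were counted, when LADs were joined across 20 kb and with LADs of at least 20 kb.

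*Slco1a1* (ENSMUSG00000041698.5, chr6:141855803-141895483, minus strand) was 62.1% LAD in WT and 47.2% in KO, and was PP, but PI with differences of any length or with the 100 kb centred on the gene. The KO LAD over its 5′ part, of 29.5 kb, was 5.95 kb shorter than the WT LAD at the end inside the gene and 0.109 kb longer at the other end. In the transcript that starts at 141895331, that shift left exons 7 to 9 in a LAD in WT only, exons 1 to 6 in both genotypes and exons 10 to 15 in neither. The outermost start of the gene, at 141895483, was in a LAD in both genotypes, 10.7 kb from the border in WT and 10.8 kb in KO.

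*Slco1b2* (ENSMUSG00000030236.7, chr6:141578039-141635167, plus strand), the hepatocyte carrier, was 67.3% LAD in WT and 74.9% in KO, and was PP. Its call turned with the rule, to PI with LADs joined across 20 kb, IP with LADs of at least 20 kb, AMB with differences of any length and II by the transcription start. It gained 9.06 kb in the KO, where a WT gap that holds exons 5 to 8 was closed, and lost 4.68 kb before exon 4. Exons 1 to 3 were in neither list, and exons 4 and 9 to 16 were in a LAD in both. Its transcription start was outside the LADs of both genotypes, 8.19 kb from the nearest WT LAD and 9.76 kb from the nearest KO LAD. A transcript with a retained intron starts at 141600776, which was 3.01 kb outside the nearest WT LAD and 8.42 kb inside a KO LAD. LADs of both genotypes lay on either side of the start. Its promoter window holds 3 GATC sites, in capitals, so sites that Dam methylase can read lie in the window itself. It is given 5′ to 3′ on the plus strand.
*Slco1b2* start, chr6:141577789-141578088: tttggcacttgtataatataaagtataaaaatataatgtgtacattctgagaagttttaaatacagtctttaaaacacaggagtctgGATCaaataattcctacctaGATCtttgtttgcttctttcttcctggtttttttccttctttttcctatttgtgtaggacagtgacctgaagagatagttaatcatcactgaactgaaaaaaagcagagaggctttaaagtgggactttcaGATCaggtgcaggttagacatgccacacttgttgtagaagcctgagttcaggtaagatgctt

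*Slco1c1* (ENSMUSG00000030235.9, chr6:141472907-141518241, plus strand) was 81.4% LAD in WT and 100% in KO, and was PP, but IP with differences of any length. A WT gap of 8.45 kb over exons 10 and 11 was closed in the KO, and the other 13 exons were in a LAD in both genotypes. Its start lay close to the border in both lists, 0.363 kb inside the WT LAD and 1.43 kb inside the KO LAD. *Slco1b2* and *Slco1c1* are the 2 genes of the 6 with a higher share in KO LADs than in WT LADs, and neither gain reached the length of a DR.

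Of the 6 outermost starts, 4 were in a WT LAD and the same 4 (*Slco1c1*, *Slco1a1*, *Slco1a6* and *Slco1a5*) were in a KO LAD. Among all protein-coding genes 22.7% and 32.8% had their start in a LAD. Those shares are not matched for place, as the median share of the span in WT LADs was 84.5% for the 6 genes and 0% for all. With the same 4 starts in both lists, no outermost start of the 6 genes changed its call. The DRs of *Slco1a4* and *Slco1a5* lie in the bodies of the genes. Some exons did differ between the lists. Of the 94 exons of the 6 genes, 56 were in a LAD in both genotypes, 15 in WT only, 6 in KO only and 17 in neither. Over the 205360 exons of all protein-coding genes, 15.5% were in both, 3.1% in WT only, 9.18% in KO only and 72.2% in neither. Among exons in a WT LAD, those in WT only were 15 of 71 (21.1%) for the 6 genes and 16.7% for all protein-coding genes, so the count of 15 is close to the background and is not a result about these genes. The 6 exons in KO only are 6.38% of the 94, and they became 0 when LADs were joined across 20 or 50 kb. Exons of 1 gene share its LADs. Of the 15, *Slco1a4* held 7, *Slco1a6* 4, *Slco1a1* 3 and *Slco1a5* 1, and the 6 lay in *Slco1b2* and *Slco1c1*.

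**Figure D4:**
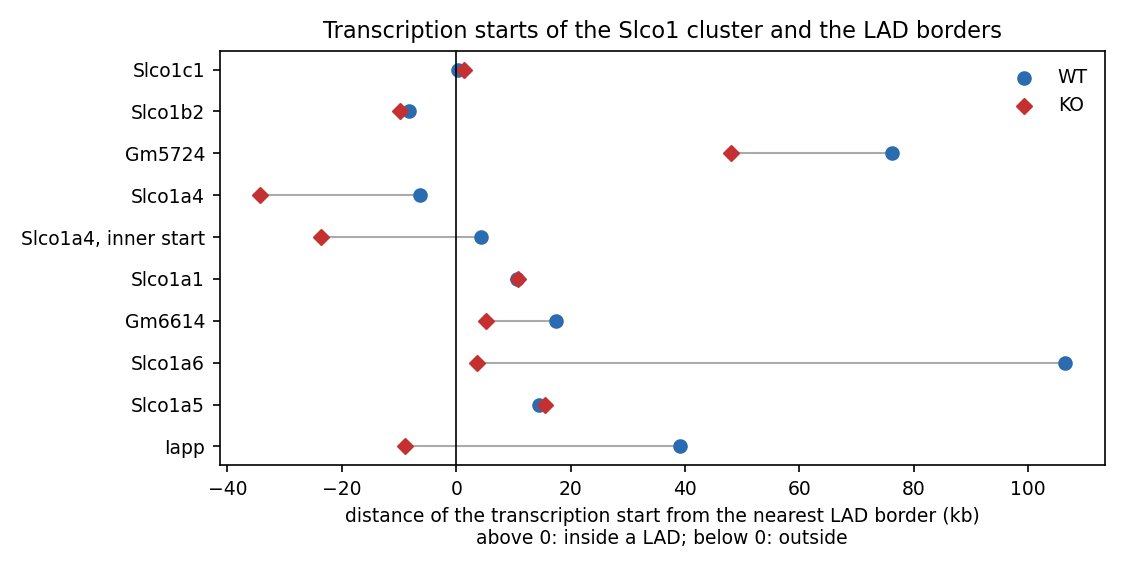
Distance of each transcription start from the nearest LAD border in kb (x axis, above 0 inside a LAD and below 0 outside) for WT (blue circles) and KO (red diamonds). The inner start of *Slco1a4* and the start of *Iapp* cross 0 between the genotypes, and the start of *Slco1a6* went from 106.3 kb to 3.71 kb inside.

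**Figure D5:**
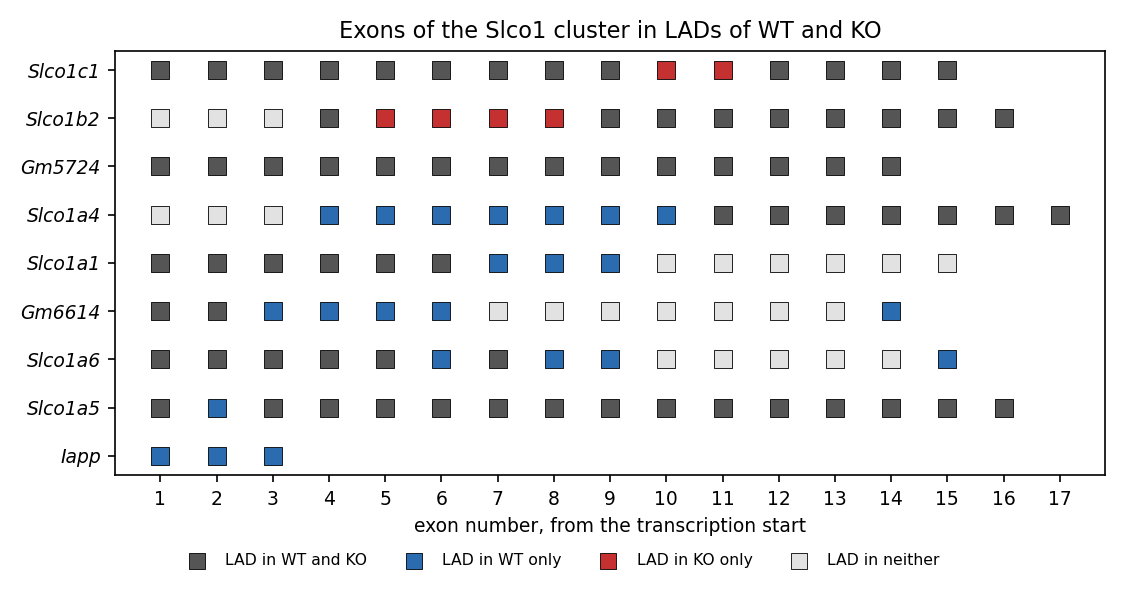
Exons of the 9 protein-coding genes, numbered from the transcription start (x axis), each marked as LAD in both genotypes (dark gray), WT only (blue), KO only (red) or neither (light gray). Blue runs over exons 4 to 10 of *Slco1a4* and red over exons 5 to 8 of *Slco1b2* and exons 10 and 11 of *Slco1c1*.

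The remaining protein-coding genes of the stretch differed from each other. *Gm5724* (65.7 kb) was wholly in a LAD in both genotypes with all 14 exons, and lies between *Slco1b2* and the *Slco1a4* DR. *Gm6614* was 66.9% LAD in WT and 16.3% in KO and was PI, with 50.7% of its span in WT-only DRs and 5 of its 14 exons in WT only. Of the noncoding genes, the 7SK copies within *Gm5724* and *Slco1a5*, *RP24-323I5.3* and *RP24-323I5.2* were in a LAD in both lists, and the other 2 7SK copies were in neither.

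The DRs in the cluster had a median length of 18.1 kb. The 2 that overlap *Gm6614* were a whole WT LAD (chr6:141915271-141927764, 12.5 kb) and the edge of the next (chr6:141939847-141951313, 11.5 kb). Then follow chr6:141962480-141977615 (15.1 kb) and chr6:141988071-142006127 (18.1 kb) between *Gm6614* and *Slco1a6*, and chr6:142160747-142180184 (19.4 kb) between *Slco1a6* and *Slco1a5*, all of which opened inside a WT LAD and hold no annotated gene. In position, 4 of the 7 DRs were flanked by KO LADs within a longer WT LAD, 2 lay at an edge, and 1 was a whole LAD. Differences under 10 kb added 42.1 kb of WT-only bases in 7 stretches and 17.6 kb of KO-only bases in 3. None of the 14 WT borders of the cluster was identical to a KO border. Their median distance to the nearest KO border was 8434.5 bp, with 1 within 1000 bp and 6 at least 10000 bp away. For the 20 KO borders the median distance to the nearest WT border was 29048.5 bp, with 1 within 1000 bp and 14 at least 10000 bp away.

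The flanks of the cluster differed from each other. The 100 kb before it were 72.1% LAD in WT and 69.4% in KO, and the 500 kb before it 76.7% and 65.8%, with 3 WT-only DRs (65.9 kb) and 1 KO-only DR (21.2 kb), so coverage was lower in the KO on that side, as in the cluster. The 3 nearest genes on that side were *Pde3a*, a phosphodiesterase of cyclic nucleotides (AMB, with 5.96% of its span in WT-only and 8.46% in KO-only DRs), *Gm11077* (PP) and *Aebp2* (II). After the cluster the direction was the opposite. In the 100 kb there, coverage was 14.5% in WT and 40.7% in KO, with a KO-only DR of 23.4 kb (chr6:142309724-142333084) that is a whole KO LAD. It overlaps *Recql*, a DNA helicase gene (63.6% of its span), and *Pyroxd1* (11.7%), which were both IP, while *Golt1b* was II. Over the 500 kb after the cluster, coverage was 11.3% in WT and 33.2% in KO, and it held 6 KO-only DRs and no WT-only DR. On that side the WT-only DRs of the cluster thus bordered on a stretch in which all DRs were KO-only.

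The parts of the cluster were close in GC content, with 39.4% in bases that were LAD in both genotypes, 39.1% in the WT-only DRs, 38.2% in bases LAD in KO only and 39.3% in bases LAD in neither. GATC sites were denser in the first of these parts than in the others. They stood at 2.84 per kb in bases LAD in both, 2.64 per kb in the WT-only DRs, 2.21 per kb in bases LAD in KO only and 2.25 per kb in bases LAD in neither, against 2.51 per kb in the genome, and the part of GATC density in the calls was not tested. Since the *Slco1a* genes are alike, the share of 32-base words that occur elsewhere in the genome was counted. It was 25.4% in bases LAD in both genotypes, 16.8% in WT-only DRs, 16.5% in bases LAD in neither, and 8.90% in bases LAD in KO only. Among the 6 *Slco1* genes it ran from 4.54% in *Slco1a4* to 30.0% in *Slco1a6*, and it was 33.5% in *Gm5724*. In the DR of *Slco1a4* it was 4.28%, the lowest of the 7 DRs. How reads from repeated words were placed, and their part in the calls of *Slco1a6* and *Gm5724*, was not tested.

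Other families of transporters and liver enzymes were set beside the cluster by the same counts, without a test. The share of PI genes to set beside these counts is 5.43% among all protein-coding genes and 24.8% among those of the length of the *Slco1* genes with at least 50% of their span in WT LADs. The second share does not match the shorter genes of the *Cyp3a*, *Ugt2* and *Mup* clusters, whose median spans were 32.4, 14.3 and 3.95 kb. For the *Ugt2* genes the median share in WT LADs was also 0%. The 9 *Slco* genes elsewhere in the genome held 75.3% of their bases in WT LADs and 74.3% in KO LADs, and 8.21% of their WT LAD bases were lost, against 29.1% for the spans of the 6 *Slco1* genes. None of the 9 was PI. *Slco5a1* was IP, *Slco4c1* and *Slco3a1* were AMB, and 3 each were PP and II. Among other clusters of liver genes, coverage of the gene spans fell from 81.4% to 22.4% for the 7 *Cyp3a* genes, drug-metabolizing monooxygenases, of which 6 were PI (*Cyp3a57*, *Cyp3a16*, *Cyp3a44*, *Cyp3a11*, *Cyp3a25* and *Cyp3a59*). It fell from 36.3% to 18.9% for the 9 *Ugt2* genes, glucuronosyltransferases, of which *Ugt2b37* and *Ugt2a1* were PI. For the 21 *Mup* genes, major urinary proteins secreted by the liver, it fell from 67.4% to 39.3%, and 12 were PI (*Mup1*, *Mup2*, *Mup5*, *Mup6*, *Mup8* to *Mup13*, *Mup19* and *Mup21*) and *Mup15* was AMB. Many *Mup* genes are known as close copies of each other. Their likeness was not measured here, and how their reads were placed was not tested. The *Slco1* spans, from 84.6% to 64.3%, lost the smallest share of their WT LAD bases of these 4 clusters (29.1% against 48.2% to 72.5%). In length the loss was 26.9 kb for *Ugt2*, 99.4 kb for *Slco1*, 112.5 kb for *Mup* and 136.4 kb for *Cyp3a*.

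Other genes of hepatic transport were counted in the same way. Of 22 genes for further uptake carriers, efflux pumps and their regulators, none was PI, against 5.43% of all protein-coding genes, and 16 were II, against 56.6%. The median share of their spans in LADs was 0% in either genotype, as for all genes. All 3 uptake genes (*Slc10a1*, the main sodium-dependent bile acid carrier, *Slc22a7* and *Slco2b1*, which is also among the 9 *Slco* genes above) were II. The 6 IP genes were 5 of 10 efflux genes and 1 of 9 regulators. They were *Abcb1a*, a drug efflux pump, with 88.6% of its span in KO-only DRs, the multidrug pumps *Abcg2* (33.4%) and *Abcc4* (26.7%), the bile salt export pump *Abcb11* (18.4%), the phospholipid exporter *Abcb4* (0.585%) and the xenobiotic receptor *Ahr* (53.4%). Among all protein-coding genes 17.1% were IP, and among those as long as the *Slco1* genes 29.5%. The count of 6 of 22 genes, with a median span of 48.1 kb, is close to the share of long genes. That share does not match all 22 genes, whose spans ran from 3.16 kb (*Nr0b2*) to 223.5 kb (*Abcc4*).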

How the data were processed

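Libraries were grouped by genotype and construct from the sample labels. The authors aligned reads to mm9, computed log2 ratios of the fusion over the Dam only control for DpnI fragments, called LADs with DNAcopy and subtracted LAD lists to make the DRs. The submitters' processing notes name BWA, limma and mm9. The 4 deposited lists used here hold interval borders without a score or p-value.

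Repeating the subtraction with a 10 kb minimum returned all 7787 WT-only and 8208 KO-only DRs. The GENCODE annotation and sequence of NCBIM37, the build of the lists, gave genes, exons and sequences. Positions are 1-based. A transcription start is the outermost 5′ base of the gene, and exons come from the coding transcript that has the most exonic bases and count as in a LAD from 1 base on. Interval steps used Python 3.11.15 and numpy 2.4.6 and were tested on simulated data, coding sequences were aligned in pairs with Biopython 1.88, and figures were drawn with matplotlib 3.10.9. Words of 32 bases were counted on both strands.

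The members and lists were chosen with earlier results of these data known. Named were each member, each other gene between the first and last member, the 3 nearest protein-coding genes on each side, and PI, IP and AMB genes of the other lists. *Slc51a* and *Slc51b* were found as *Osta* and *Ostb*. No test was made, since each genotype has 1 library pair. Other overlap rules, DR and LAD minimums, joining of LADs, cluster edges, starts and exon sets were tried as alternatives. DamID profiles and expression data are not analysed here, and an item of the transport list is not reported here.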

Additional observations from a re-analysis of the deposited data

How the results depend on the processing

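With 1 library pair per genotype, a value counted as moved when it changed by more than 1.5 times, and 65 of 85 alternative values did not. The counts of the 6 genes follow, with the share of all protein-coding genes under the same rule in parentheses. Against 2 PI, 4 PP and no IP, AMB or II genes, asking for 50% of the span left 1 PI gene (2.23%). The transcription start alone gave 0 PI (2.23%) and 2 II (65.7%). Differences of any length gave 4 PI (6%), 1 IP (17.5%), 1 AMB (4.82%) and 0 PP genes (15.8%). Joining LADs across 20 kb gave 4 PI (4.28%) and 2 PP genes (21.4%), and across 50 kb 1 PI gene (2.81%). LADs of at least 20 kb gave 3 PI (5.44%), 1 IP (13.4%) and 2 PP genes (17.3%). WT-only DRs in the cluster fell from 137.1 kb to 60.5 kb in the gene spans alone and with DRs of at least 20 kb, and to 28.1 kb, all in *Slco1a4*, when LADs were joined across 50 kb. KO-only DRs rose from 0 to 23.4 kb with 100 kb added on each side, to 14.5 kb with LADs of at least 20 kb, and to 17.6 kb with differences of any length. The 6 exons in KO LADs only became 0 under either joining, which closes the WT gaps that hold them. Coverage stayed between 74.3% and 90.9% in WT and between 55.3% and 86.7% in KO, below WT under each alternative tried, but with LADs joined across 50 kb the values were 90.9% and 86.7%. For the other moved values the cause was not tested. LADs placed without a score cannot be weighed by depth, which was lower in the KO. No paired analysis was possible because each genotype has 1 library pair from pooled mice, and no result comes from a test.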
